A study of Mus musculus with 6 samples.

Results

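Autopod mesenchyme is the mesenchyme of the future hand and foot plate. The cells described here carry that name in the authors' deposited cell annotation of the C57BL/6 wild-type and Dup hindlimb libraries, where 1801 cells had the label and 7 were left out for having 2000 or fewer detected genes. Of the 6897 cells kept in this pair of libraries, 1794 were autopod mesenchyme, 326 in the wild type and 1468 in Dup. The 6 libraries of the series held 26486 cells in all.

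Both libraries came from hindlimbs of mouse embryos at E11.5 with the strain given as c57bl6.J, 1 wild type and 1 homozygous for the duplication, so each genotype was 1 library and nothing was tested between them. Dup carries an extra tandem copy of Lbx1, of Btrc and Poll, and of Dpcd with Fbxw4, while Fgf8 lies outside it, and the study places it in a C57BL/6 background. Its methods describe editing of G4 stem cells, a hybrid line of 129 and C57BL/6, with mouse lines then bred to C57BL/6, and the labels do not say how much hybrid background the Dup embryos kept. Any such background, and any difference between the libraries themselves, cannot be told apart from the duplication here. How many embryos went into each library is not given in the sources used. A further wild-type hindlimb, of G4 embryos, was used for size of differences only. The G4 forelimb and the G4 hindlimb and forelimb of Inv1, a homozygous inversion that breaks Fbxw4, were used only for the share of cells with autopod markers.

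The limb is laid out along its long axis as stylopod (upper segment), zeugopod (lower segment) and autopod. The 5′ genes of the HoxD and HoxA clusters pattern these segments, with Hoxd13 and Hoxa13 required for the autopod, while Meis and Shox2 factors mark more proximal mesenchyme. Autopod mesenchyme grows under FGF signals of the apical ectodermal ridge, carries the Shh-producing cells at its posterior side, and later condenses into digits under Sox9.

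The label was checked against its markers Hoxd13, Hoxa13, Msx1 and Lhx9. UMIs were summed over the cells of a label and scaled to counts-per-million (CPM) of that label's total, which was 3.34 M UMIs in the wild type (median 9108 a cell) and 11.95 M in Dup (median 7569.5). Intervals in brackets are exact at 95% and cover counting error only. Hoxd13 stood at 283 CPM (265 to 302) in the wild type and 285 CPM (275 to 294) in Dup autopod. In zeugopod mesenchyme it was 25 and 36.5 CPM, and in stylopod mesenchyme 15.2 and 21.9 CPM. Hoxa13 was at 191 and 169 CPM in autopod, at 44.8 and 77.0 in zeugopod and at 10.1 and 13.2 in stylopod. Msx1, a homeobox gene of distal mesenchyme, was at 187 and 185 CPM against 114 and 146 in zeugopod. Lhx9, a LIM homeobox gene, did not set autopod apart from zeugopod, with 216 and 199 CPM against 200 and 187. After thinning every cell to 4000 UMIs, 60.1% of wild-type and 62.6% of Dup autopod cells held UMIs of 2 or more of the 4 markers, against 20.7% and 28.0% in zeugopod and 8.54% and 7.76% in stylopod. At that depth 41 of 326 wild-type and 169 of 1464 Dup autopod cells held none of the 4.

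The promoter windows of Hoxd13 and Hoxa13 are shown, the Hox pair among the markers of the label, 250 bases before to 50 after the start of the gene in the RefSeq table of GRCm38.p6, with TATAAA in capitals where it occurs on either strand. The Hoxd13 window is chr2:74667975-74668274 on the plus strand and the Hoxa13 window chr6:52260831-52261130 on the minus strand.
Hoxd13: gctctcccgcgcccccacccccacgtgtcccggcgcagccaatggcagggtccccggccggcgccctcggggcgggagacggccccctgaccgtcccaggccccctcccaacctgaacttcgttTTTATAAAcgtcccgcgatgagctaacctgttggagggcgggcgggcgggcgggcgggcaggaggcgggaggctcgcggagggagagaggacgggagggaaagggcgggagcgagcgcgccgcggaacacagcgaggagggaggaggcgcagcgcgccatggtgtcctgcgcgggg
Hoxa13: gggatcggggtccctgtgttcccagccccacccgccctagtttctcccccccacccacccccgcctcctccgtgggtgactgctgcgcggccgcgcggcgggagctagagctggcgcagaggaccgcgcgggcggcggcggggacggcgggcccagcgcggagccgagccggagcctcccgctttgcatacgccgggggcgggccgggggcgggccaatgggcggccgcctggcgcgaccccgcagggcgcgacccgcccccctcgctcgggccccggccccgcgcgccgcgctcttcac
The capitals in the Hoxd13 window are a TATAAA on each strand that overlap, and the Hoxa13 window holds none. GC made up 74.3% and 81% of the bases of these windows, against a median of 52.7% over 32851 windows. TATAAA was present in 13.6% of all windows. Of the 15 genes ranked highest in autopod against the other segments, 10 matched the table with 13 windows, and TATAAA was in 1 of these. GGGCGG (either strand) was in 10 of the 13 windows and in 35.7% of all, and CAATAAA was in 0 of the 13 and in 4.60% of all. In the annotation of NCBIM37, the build behind the mm9 coordinates of the study, Hoxd13 lies at chr2:74506367-74509656 and Hoxa13 at chr6:52207693-52210874.

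The label took a larger share of the Dup library. It covered 14.5% (13.1 to 16.0) of the wild-type cells and 31.6% (30.2 to 32.9) of the Dup cells, a ratio of 2.18 (1.93 to 2.46). Zeugopod mesenchyme held 28.4% and 29%, a ratio of 1.02 (0.930 to 1.13), and stylopod mesenchyme 30.6% and 16.7%, a ratio of 0.546 (0.492 to 0.606). Among the cells of these 3 labels the autopod share was 19.7% and 40.9%. Autopod chondrocyte progenitors, which carry their own label, had a ratio of 1.46 (1.15 to 1.88), and stylopod chondrocyte progenitors one of 0.369 (0.291 to 0.467). With 1 library of each genotype, the library and the genotype cannot be told apart in these shares.

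Against zeugopod and stylopod mesenchyme, few genes passed the fold upward in autopod cells, 3 of them Hox genes. The label comes from clusters of the same expression values, so these differences describe it and were not tested. Of 5941 genes that averaged at least 20 CPM, 7 were at least 2-fold higher than in both other segments in both libraries (0.118%), on a log2 scale with 10 CPM added, and 48 were at least 2-fold lower (0.808%). The 7 were Hoxd13, Tfap2b, Hoxd12, Slc25a33, Lmo2, Msi2 and Hoxa13. Of 8 distal limb factors measured, 1 was past the fold, 5 were higher in all 4 comparisons (both libraries, both segments) and 2 were lower in all 4.

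Hoxd13 was 11.3-fold (9.53 to 13.5) above zeugopod in the wild type and 7.79-fold (6.97 to 8.73) in Dup. Hoxd12, its neighbour in the cluster, stood at 134 and 133 CPM against 23.9 and 22.6 in zeugopod and 9.89 and 13 in stylopod. Hoxd11 was less restricted, at 327 and 237 CPM against 246 and 147 in zeugopod and 69.5 and 59.1 in stylopod. Hoxd9 was lower in autopod, at 20.1 and 12.2 CPM against 47.6 and 32.2 in zeugopod. From Hoxd9 to Hoxd13 the ratio of autopod to zeugopod followed the order of the genes in the cluster in the wild type, at 0.422, 1.29, 1.33, 5.6 and 11.3, and likewise in Dup, at 0.379, 1.26, 1.62, 5.89 and 7.79, as the plot of levels by segment shows. Evx2, next to Hoxd13, was under the limit at 18.6 and 16.7 CPM. In the HoxA cluster, Hoxa13 was 4.27-fold (3.70 to 4.93) above zeugopod in the wild type and 2.19-fold (2.01 to 2.39) in Dup. Hoxa11, a gene of the zeugopod, was at 41.1 and 16.3 CPM in autopod against 177 and 125 in zeugopod.

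Tfap2b, an AP-2 factor that the gene table gives as Tcfap2b, was close to absent outside the autopod. It stood at 88.7 and 61.9 CPM in autopod, at 2.94 and 3.6 in zeugopod and at 3.19 and 2.37 in stylopod. Lmo2, a LIM-only cofactor, was at 71.6 and 39.7 CPM against 7.52 and 10.5 in zeugopod. Lhx2, a LIM homeobox gene of the distal bud, was at 146 and 110 CPM against 53.3 and 58.8. Hey1, a Notch target, was at 51.2 and 34.6 CPM against 11.9 and 12.9, and Has2, which makes hyaluronan, at 42.0 and 45.9 against 19.8 and 21.4. Lnp, whose gene lies beside the HoxD cluster, was at 131 and 134 CPM against 65.6 and 60.3. Slc25a33, a mitochondrial nucleotide carrier, and Msi2, an RNA-binding protein, were higher than zeugopod by 3.21-fold (2.55 to 4.05) and 2.78-fold (2.43 to 3.18) in the wild type. The remaining genes among the 15 ranked highest were Ctsc, Cdc42ep3, Cdh3 and Bok.

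**Figure D1:**
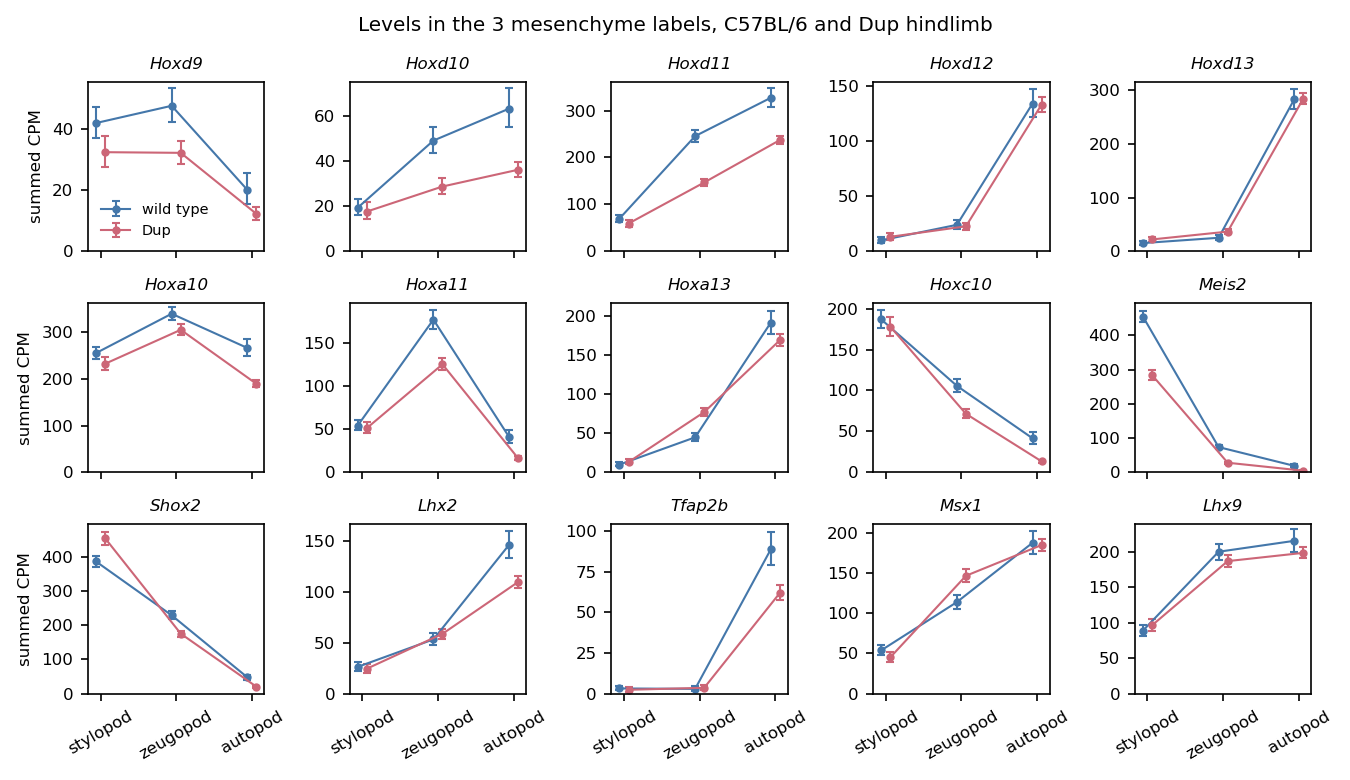
Summed CPM (y axis, linear from 0) of 15 genes in stylopod, zeugopod and autopod mesenchyme (x axis) of the wild-type (blue) and Dup (red) hindlimb, with exact 95% Poisson intervals. Hoxd13, Hoxd12, Hoxa13 and Tfap2b stand higher in autopod than in both other labels in both libraries, Meis2, Shox2 and Hoxc10 stand lower, and Lhx9 is alike in autopod and zeugopod.

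More genes were past the fold downward in autopod, and a part of these were in the lists of proximal, chondrogenic and connective tissue genes, with 3 of the 48 from each. Shox2, needed for stylopod elements, was at 47.7 and 20.2 CPM in autopod against 229 and 175 in zeugopod and 386 and 453 in stylopod. Igf1, an insulin-like growth factor, was at 11.7 and 3.01 CPM against 106 and 45.4 in zeugopod. Meis2 stood at 19.2 and 5.02 CPM against 455 and 284 in stylopod. The others among the 10 ranked lowest were Pcdh10, Col1a2, Aff3, Cxcl12, Gsc, Col3a1, Col2a1 and Osr1, of which the collagen Col2a1 was at 16.8 and 14.9 CPM against 92.3 and 72.3 in zeugopod. Of 9 proximal limb factors measured, 8 were lower in autopod in all 4 comparisons and 3 were past the fold. All 8 chondrogenic genes measured were lower in all 4 and 3 past the fold. Sox9 stood at 95.6 and 69.7 CPM against 206 and 147 in zeugopod. Chondrocyte progenitors of autopod and stylopod had labels of their own, while zeugopod had no such label. Cells of that kind could thus be counted in zeugopod mesenchyme. Autopod mesenchyme also held cells high in Sox9, those of deposited cluster 14 at the levels given below. After thinning, Sox9 was found in 58.5% and 51.9% of stylopod mesenchyme cells against 42.3% and 33.1% of zeugopod cells. The part of the separate labels in these values was not tested. Of 11 tendon and connective tissue genes measured, 7 were lower in all 4, 3 of them past the fold, and 2 were higher in all 4. Over all genes measured, 2118 of 5941 were lower in all 4 and 1729 higher.

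Genes of the cell cycle were higher in autopod by small amounts. All 17 G2/M genes measured were higher in all 4 comparisons, none past the fold, with medians of 0.33 and 0.47 on the log2 scale against zeugopod and stylopod in the wild type and 0.32 and 0.46 in Dup. Of 14 S phase genes, 10 were higher in all 4, and of 10 hypoxia and glycolysis genes, 9. The 3 HoxC genes measured, Hoxc9, Hoxc10 and Hoxc11, were lower in all 4 comparisons, and Hoxc10 and Hoxc11 were past the fold. Hoxc10 stood at 41.7 and 13.5 CPM in autopod against 106 and 71.5 in zeugopod and 187 and 178 in stylopod.

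Between Dup and wild type, the duplicated genes checked the genotype label in autopod cells. Btrc, a ubiquitin ligase subunit, was at 21.6 CPM (16.9 to 27.2) in the wild type and 42.3 CPM (38.7 to 46.2) in Dup, a ratio of 1.96 (1.53 to 2.55). Poll, a DNA polymerase, was at 10.2 and 21.9 CPM, Dpcd at 53.3 and 117 CPM, and Fbxw4, an F-box protein, at 5.69 and 10.8 CPM. The sum of the 4 had a ratio of 2.11 (1.87 to 2.39) in autopod, 2.45 (2.23 to 2.69) in zeugopod and 2.08 (1.89 to 2.29) in stylopod. The sum of 16 flanking genes had a ratio of 0.960 (0.915 to 1.01) in autopod. Dpcd (chr19:45635105-45652769) and Fbxw4 (chr19:45652744-45734802) overlap at their ends in NCBIM37, and the sources used here do not say whether counting used strand, so reads there could be shared. Lbx1, a muscle precursor gene, had 11 UMIs in each library's autopod cells. At 4000 UMIs a cell, Lbx1 was found in 3 of 326 wild-type and 5 of 1464 Dup autopod cells, against 40.2% and 59.0% of muscle cells and 1 of 29 and 1 of 52 lymphocytes, so it was read as background.

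Few genes differed between Dup and wild type in autopod mesenchyme by the fold used. Of 5700 genes that averaged at least 20 CPM, 15 were at least 1.5-fold higher in Dup (0.263%) and 43 at least 1.5-fold lower (0.754%), with a median log2 ratio of -0.04. Scaling by the median of ratios in place of the total gave 22 higher and 24 lower with a median of 0.05. Of the 43 lower, 6 were haemoglobin genes. Zeugopod had 18 higher and 25 lower of 5938 genes, and stylopod 26 higher and 14 lower of 6054. The label comes from clusters of the integrated libraries, named by markers, so likeness of its markers can be set in part by that choice. Summed over the label, its markers and Hoxd12 had Dup to wild-type ratios near 1. These were 1.01 (0.935 to 1.08) for Hoxd13, 0.883 (0.807 to 0.966) for Hoxa13 and 0.993 (0.894 to 1.11) for Hoxd12. Msx1 had 0.985 (0.901 to 1.08) and Lhx9 0.921 (0.847 to 1.00). Not all genes higher in autopod were near 1, as Tfap2b and Lmo2 were lower in Dup at the levels given above. Of 7 distal limb factors measured, 1 was above 0 and 0 were past the fold, against 2226 of 5700 above 0 over all genes. Their median log2 ratio was -0.38. In cluster 1 of the deposited clusters, Hoxd13 and Msx1 were further from 1, at 104 and 193 CPM and at 40.8 and 22.7 CPM. At the levels given below, Msx1 was nearly alike in both libraries in cluster 0, and Hoxd13 was somewhat lower in Dup in clusters 0 and 14.

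Of the 15 genes higher in Dup, 4 were in the list of dissociation stress genes, which holds immediate-early genes that cells switch on within minutes of a stimulus, 2 were duplicated genes (Btrc and Dpcd), and the other 9 were in neither list. The 5 that the rule for naming left out were Btrc, Nbl1, Uchl1, Fosb and Klf2. Egr1, an immediate-early zinc finger factor, was at 7.19 CPM (4.61 to 10.7) in the wild type and 51.5 CPM (47.5 to 55.7) in Dup. Fos was at 49.2 and 140 CPM, Jun at 161 and 354 CPM and Cyr61, a matricellular protein gene, at 22.2 and 67.2 CPM. Among 9 dissociation stress genes measured, Egr1, Fos, Fosb and Jun, 4 in all, were past the fold in Dup, and the median log2 ratio was 0.55 in autopod, 0.47 in zeugopod and 1.25 in stylopod, against -0.04, -0.03 and -0.02 over all genes. Fosb was at 14.1 and 26.5 CPM and Ier2 at 330 and 475 CPM. With 1 library each, the handling of the tissue and the genotype cannot be told apart. ENSMUSG00000103034, which has no symbol in the tables used, was at 6.89 and 53.2 CPM, with ratios of 6.68 and 7.77 in the other segments. Atp6v1g3, a proton pump subunit, and 9430024E24Rik stood at 16.8 and 36.6 CPM and at 17.1 and 34.9 CPM. Amotl2, a regulator of Hippo signalling, was at 12.6 and 29.6 CPM. Sema3a, a secreted guidance factor, was at 17.4 and 35.4 CPM, a ratio of 2.04 (1.54 to 2.73) that did not hold in marker-gated cells (0.832, 0.686 to 1.01) or, with a log2 ratio of -0.03, in the largest cluster of the label.

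Among the genes lower in Dup were 3 Hox genes, Hoxc10, Hoxa11 and Hoxd10. Hoxc10, a HoxC gene of the hindlimb, was at 41.7 CPM in the wild type and 13.5 CPM in Dup, a ratio of 0.323 (0.256 to 0.409). Hoxa11 was at 41.1 and 16.3 CPM, Shox2 at 47.7 and 20.2 CPM and Tshz2, a zinc finger factor, at 42.6 and 19 CPM. The paternally expressed imprinted genes Mest, Peg10 and Peg3 stood at 627 and 331, at 62 and 29 and at 198 and 103 CPM. Asb4, an ankyrin repeat protein gene, was at 125 and 63.4 CPM. In cells with over 3000 detected genes 40 genes were lower, of which 24 were among the 43, and Peg10 and Asb4 were no longer past the fold, with log2 ratios of -0.53 and -0.47. Lmo2, which was highest in autopod, was also past the fold, at 71.6 and 39.7 CPM, as was Hoxd10, at 63.2 and 36.1 CPM. Hoxd11 and Hoxa10 were lower by less, with ratios of 0.725 (0.675 to 0.778) and 0.712 (0.658 to 0.770). Hoxd12 and Hoxd13 stood near 1 in the label. In marker-gated cells they were higher in Dup, with ratios of 1.30 (1.17 to 1.45) and 1.31 (1.22 to 1.41).

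**Figure D2:**
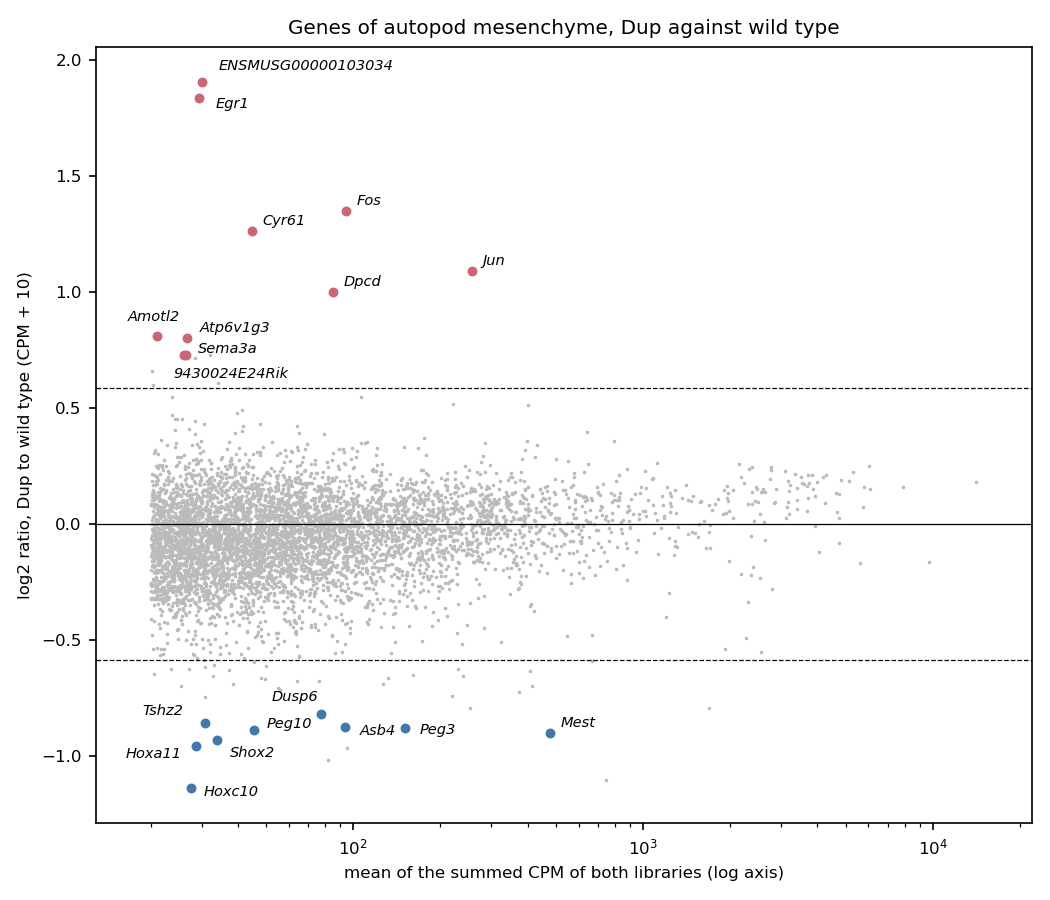
Each point is 1 of 5700 genes of autopod mesenchyme, with the mean CPM of both libraries on the x axis (log axis) and the log2 ratio of Dup to wild type, with 10 CPM added, on the y axis; dashed lines mark 1.5-fold, and the genes named in the text among the 10 highest (red) and 10 lowest (blue) are labelled. Most genes lie near 0, and the labelled genes are mostly at low to middle levels.

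The receiving side of FGF signalling was lower for some of its feedback genes. Dusp6, a phosphatase that dampens ERK, was at 102 CPM (91.4 to 113) in the wild type and 53.5 CPM (49.4 to 57.8) in Dup. Spry4, another feedback inhibitor, was at 25.5 and 12.5 CPM, a ratio of 0.489 (0.372 to 0.647), though its mean is under the 20 CPM limit. The ratio was 0.587 (0.469 to 0.737) for Spry1, 0.565 (0.456 to 0.702) for the ETS factor Etv5 and 0.654 (0.558 to 0.769) for Il17rd. Etv4 at 1.02 (0.845 to 1.24) and Spry2 at 0.919 (0.812 to 1.04) stood apart from these. Of 8 feedback targets measured, Dusp6 and Etv5, 2 in all, were past the fold in the lower direction, with a median log2 ratio of -0.34 against -0.04 over all genes. That median was -0.21 in zeugopod and -0.07 in stylopod.

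In the other signalling lists no measured gene passed the fold on the scale with 10 CPM added, though plain ratios of low genes lay further from 1. Shh, made by posterior cells, had 43 UMIs in the wild type and 50 in Dup, 12.9 CPM (9.33 to 17.4) and 4.18 CPM (3.11 to 5.52), and it was under the level limit. Its receptor gene and target Ptch1 was at 70.7 and 52.6 CPM, a ratio of 0.744 (0.640 to 0.868). Of 6 genes of the Shh pathway and posterior side measured, 0 were past the fold, with a median log2 ratio of -0.16. Bmp2 and Bmp4 lay on opposite sides of 1, with ratios of 1.59 (1.21 to 2.13) and 0.631 (0.545 to 0.732), and of 5 BMP ligands and antagonists measured 0 were past the fold. The Wnt target Axin2 was at 24.6 and 36.6 CPM. All 4 Wnt/beta-catenin targets measured were above 0 with 0 past the fold, against 2226 of 5700 above 0 over all genes. Of 5 Notch genes 0 were past the fold, with a median of -0.42, where Jag1 had 86.6 and 61.1 CPM. Of 6 genes of retinoic acid handling 0 were past the fold, and Cyp26b1, which clears retinoic acid distally, was at 129 and 93.7 CPM. Pitx1 and Tbx4, which specify hindlimb identity, were at 201 and 154 and at 38.7 and 26.2 CPM.

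Most of these genes lay on the same side of 0 in the other segments, and fewer passed the fold there. Of the 15 genes higher in Dup, 14 were also above 0 in zeugopod and 14 in stylopod, and 10 and 9 were past the fold there. Of the 43 lower, 41 and 38 were also below 0, but only 10 and 3 were past the fold. Over all genes measured in autopod the median log2 ratio was itself below 0, at -0.03 in zeugopod and -0.02 in stylopod. The share of all genes below 0 in those segments was not counted. Hoxc10 had a ratio of 0.677 (0.606 to 0.755) in zeugopod and 0.952 (0.872 to 1.04) in stylopod, and Shox2 0.766 (0.713 to 0.823) and 1.18 (1.11 to 1.25). The 5 genes whose Dup to wild-type difference was highest in autopod against the mean of the other segments were Sema3a, Amotl2, Mbnl2, Prdm16 and 5031425E22Rik, and the lowest included Rprm, Shox2, Hoxc10 and Rhob. The markers of the label had ratios in zeugopod of 1.46 (1.20 to 1.78) for Hoxd13, 1.72 (1.49 to 1.98) for Hoxa13, 1.29 (1.17 to 1.41) for Msx1 and 0.934 (0.868 to 1.01) for Lhx9. Rprm, a cell-cycle gene, had ratios of 0.875 in autopod, 1.82 in zeugopod and 2.44 in stylopod. Whether such differences between segments exceed those between embryos was not tested.

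**Figure D3:**
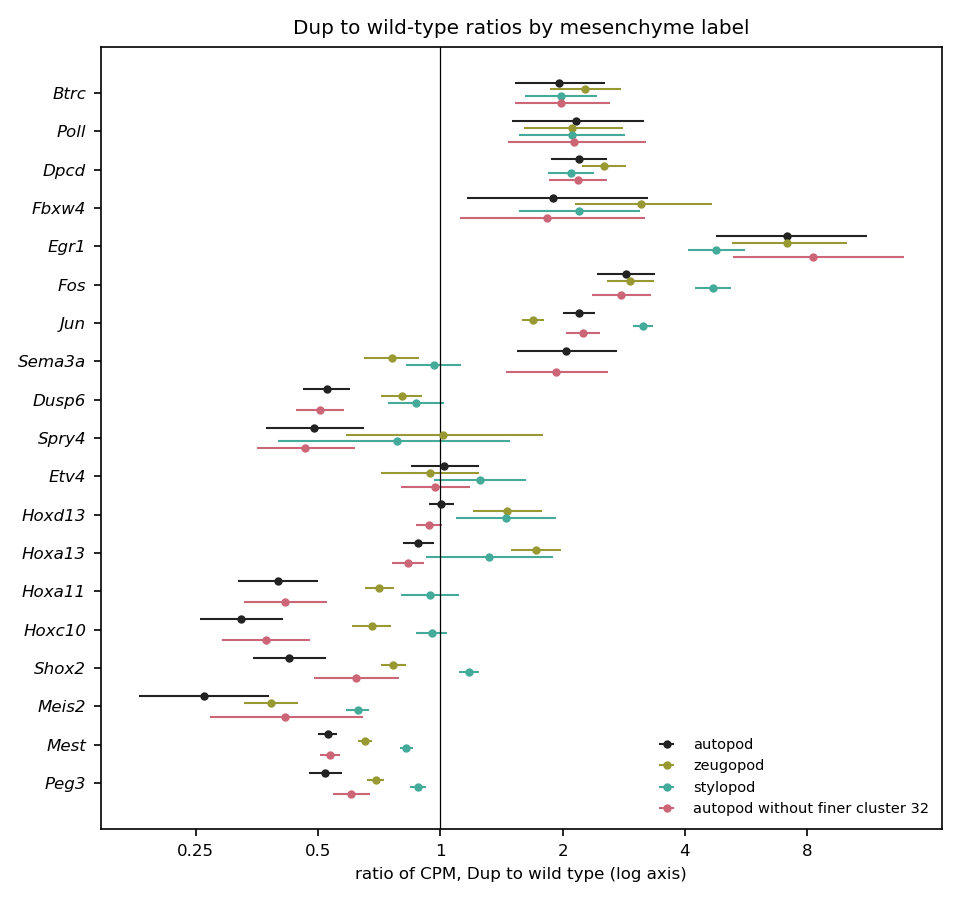
Ratio of CPM of Dup to wild type (x axis, log axis, exact 95% intervals) for 19 genes in autopod (black), zeugopod (olive) and stylopod (green) mesenchyme and in autopod without 1 finer cluster (red). The duplicated genes lie near 2 in every label, Hoxc10 and Hoxa11 are lowest in autopod, and Shox2 and Meis2 move toward 1 in autopod when the finer cluster is left out.

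A small cluster of the wild-type library touched several of these genes. Cluster 32 of the authors' finer clustering held 29 of 326 wild-type autopod cells (8.90%) and 8 of 1468 Dup cells (0.545%), and it was examined after its values were seen. Its wild-type cells had Hbb-y, an embryonic haemoglobin, at 5973 CPM against 1778 in the other wild-type autopod cells. They also had Shox2 at 207 against 32.5 CPM, Meis2 at 93.1 against 12.1, Myod1, which marks muscle cells, at 31.0 against 1.31 and Hoxd13 at 65.5 against 304. Without the cluster, Dup to wild-type ratios went from 0.425 to 0.621 (0.489 to 0.792) for Shox2, from 0.262 to 0.415 for Meis2 and from 0.323 to 0.371 (0.290 to 0.477) for Hoxc10. Hoxa11 went from 0.397 to 0.415 and Dusp6 from 0.525 to 0.506. Counts of genes past the fold were 18 higher and 48 lower without it, of which 14 and 32 were among the 15 and 43.

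Markers of other cell types were compared as whole lists. The 12 muscle markers summed to 43.2 CPM in the wild-type and 14.3 CPM in the Dup autopod cells, with Pax7 at 0 in Dup and Tnnt1 highest at 9.29 and 4.52 CPM. Without cluster 32 these sums had a ratio of 0.613 (0.462 to 0.820) in place of 0.332 (0.264 to 0.417). The 7 red blood cell genes with a row summed to 4045 and 2210 CPM, the 8 immune markers to 8.39 and 3.35 CPM, the 12 epithelial markers to 37.8 and 28.7 CPM, the 8 endothelial markers to 24.6 and 23.3 CPM, nearly all of it Egfl7, and the 8 neural crest and neural markers to 22.8 and 23.1 CPM. The endothelial genes Cldn5, Cdh5 and Cd93 and the neural crest genes Foxd3 and Sox10 were at 0 in the wild type, as were the epithelial Krt19, Cdh1, Cldn6 and Wnt7a. Their part in the differences of named genes was not tested.

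Autopod cells fell into 3 deposited clusters in almost the same proportions in the 2 libraries. Cluster 0 held 52.5% and 53.7% of the autopod cells, cluster 1 held 36.8% and 35.8% and cluster 14 held 10.7% and 10.6%. The genes that lead each cluster describe it and were chosen after their values were seen. Cluster 0 was highest for Bmp4 and Mtss1, with Bmp4 at 122 and 73.8 CPM against 20.4 and 16.4 in cluster 1. Cluster 1 had Meox2, a homeobox gene, at 172 and 140 CPM against 22.0 and 27.6 in cluster 0, along with the tendon factor Scx at 174 and 132 and Grem1, a BMP antagonist, at 88.4 and 56.5. Cluster 14 had Sox9 at 323 and 325 CPM against 37.0 and 36.3 in cluster 0, and Efna1, an ephrin, at 200 and 91.3. Hoxd13 was at 367 and 317 CPM in cluster 0, at 104 and 193 in cluster 1 and at 465 and 428 in cluster 14, so cluster 1 held less of it in both libraries. Msx1 was at 286 and 279 CPM in cluster 0 and at 40.8 and 22.7 in cluster 1, and Hoxa11 at 18.8 and 11 against 84.1 and 25.9.

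**Figure D4:**
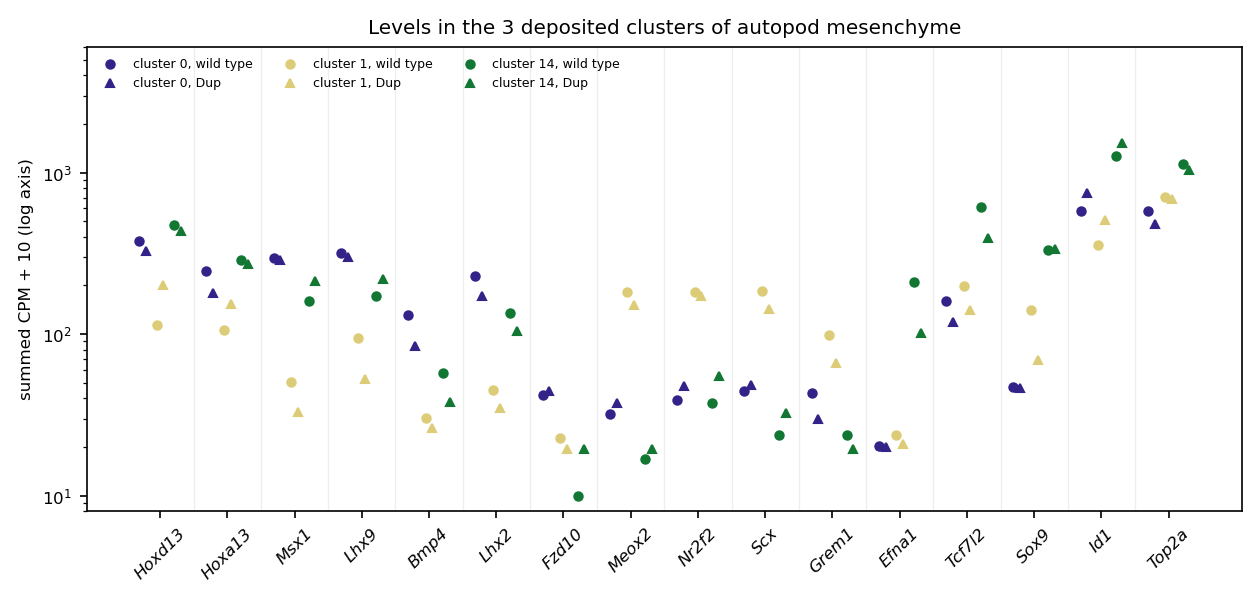
Summed CPM plus 10 (y axis, log axis) of 16 genes (x axis) in clusters 0, 1 and 14 of autopod mesenchyme in the wild type (circles) and Dup (triangles). Msx1, Bmp4 and Lhx2 are highest in cluster 0, Meox2, Nr2f2 and Scx in cluster 1, and Efna1, Tcf7l2 and Sox9 in cluster 14, in both libraries.

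Each Hox gene of the autopod was seen in a part of the cells, at shares that differed between the genes. At 4000 UMIs a cell, Hoxd13 was found in 57.1% (51.5 to 62.5) of wild-type and 61.7% (59.1 to 64.2) of Dup autopod cells, and in 74.2% and 77.2% without thinning. Lymphocytes, which should lack it and had a median of 13533 and 10857.5 UMIs, held it in 13.8% and 5.77% of 29 and 52 cells, read here as background. The source of these UMIs was not tested, and no further doublet step was run. Hoxa13 was found in 50.3% (44.7 to 55.9) and 48.2% (45.6 to 50.8), in zeugopod in 12.7% and 22.6%, and in lymphocytes in 3.45% and 7.69%. Both Hoxd13 and Hoxa13 were found in 106 of 326 wild-type and 456 of 1464 Dup cells and neither in 82 and 312. Hoxd12 was found in 35.6% and 37.5%. Tfap2b was found in 24.5% and 18% of autopod cells and in 0.776% to 1.03% of zeugopod and stylopod cells. Shox2 was in 17.2% and 7.31% of autopod cells but in 17.2% and 7.69% of lymphocytes, of which only 29 and 52 cells were read, so its autopod share was not above background. Its level was not even among autopod cells, however, with the higher values of wild-type cluster 32 given above. Free RNA as a part of the Shox2 difference between Dup and wild type was not tested. Shox2 was not alone in this limit. Meis2 was in 6.75% and 1.37% of autopod cells against 6.90% and 5.77% of lymphocytes. Sox9 was in 26.4% and 20.6% against 27.6% and 17.3%, though its level was uneven between the deposited clusters. Hoxa11 was in 10.1% and 6.08% against 3.45% and 5.77%, close to background in Dup.

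**Figure D5:**
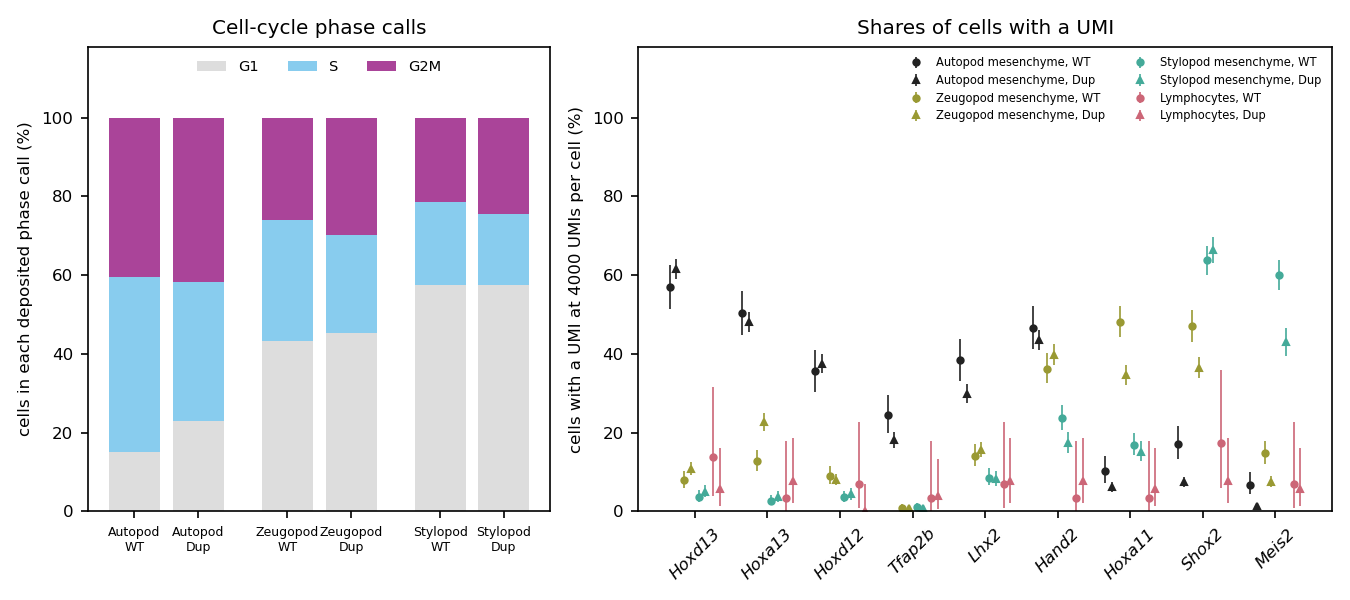
Left, share of cells in each deposited cell-cycle call (y axis, percent) for the 3 mesenchyme labels of the wild type and Dup; right, share of cells with a UMI of each gene after thinning to 4000 UMIs (y axis, percent, exact 95% intervals) for the 3 labels and lymphocytes. Autopod has the lowest G1 share, and Hoxd13, Hoxa13, Hoxd12 and Tfap2b are found in more autopod cells than in any other label shown.

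The authors' cell-cycle calls gave fewer G1 cells in autopod than in the other segments. In autopod 15% of wild-type cells were called G1, 44.5% S and 40.5% G2/M, and in Dup 23.0%, 35.4% and 41.7%. The G1 share was 43.3% and 45.3% in zeugopod and 57.4% and 57.6% in stylopod. Between the libraries, G1 differed mainly in cluster 0, with 12.9% in the wild type and 30.6% in Dup. The 17 G2/M genes summed to 7109 and 7473 CPM in autopod, 5714 and 5808 in zeugopod and 5066 and 4791 in stylopod, and the 14 S phase genes to 2297 and 2250, 1993 and 1904, and 1800 and 1763 CPM. The summed level of S phase genes in autopod had a Dup to wild-type ratio of 0.979 (0.955 to 1.00) and that of G2/M genes 1.05 (1.04 to 1.07). Median depth was 9741 and 8052.5 UMIs a cell in cluster 0. In cluster 1 it was 8649 and 7348, with 21.7% and 17.3% of cells called G1. In cluster 14 it was 7608 and 6643, with 2.86% and 3.23%. The part of depth in the phase calls was not tested.

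A gate of UMIs of 2 or more of the 4 markers among mesenchyme cells thinned to 4000 UMIs used the mesenchyme labels but not the segment label. It held 22.6% (20.8 to 24.5) of the wild-type and 36.3% (34.8 to 37.7) of the Dup mesenchyme cells. The G4 wild-type hindlimb had 33.0% and forelimb 44.9%, and Inv1 hindlimb and forelimb 33.9% and 40.2%, so the C57BL/6 wild-type share was the lowest of the 6 libraries. Dup was the highest of the hindlimbs and below both forelimbs. Of gated cells 43.4% carried the autopod label in the wild type and 59.7% in Dup.

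The G4 wild-type hindlimb served as a yardstick for how far 2 wild-type libraries can differ. It is of another strain and its counts were deposited in a separate matrix, so strain, processing and library cannot be told apart in its values. Both Dup and G4 were set against the same C57BL/6 wild type and share it, so their values stand side by side and were not correlated. In gated cells 67 of 5872 genes were past 1.5-fold in Dup (1.14%), and 237 of 5889 in G4 (4.02%). For several of the genes lower in Dup the ratio in G4 was about as low in gated cells. Hoxc10 had 0.428 (0.372 to 0.492) in Dup and 0.345 (0.302 to 0.395) in G4. Shox2 had 0.503 and 0.520, Tshz2 0.448 and 0.474, and Mest 0.526 and 0.434. Igf1, which was under the 20 CPM limit in the autopod label, had 0.312 and 0.352. The autopod label covered 43.4% of gated wild-type and 59.7% of gated Dup cells, and the part of this cell mix in the ratios was not tested. Among the genes higher in Dup, Atp6v1g3 had 2.15 and 2.36, 9430024E24Rik 2.11 and 2.24 and ENSMUSG00000103034 6.30 and 19.1. Hoxd13 and Hoxd12, which stood near 1 in the autopod label, had 1.31 and 1.28 and 1.30 and 1.20. Hoxd13 is itself a marker of the gate. The other gate markers Hoxa13, Msx1 and Lhx9 had 1.15, 0.988 and 0.932 in Dup and 1.00, 1.19 and 1.17 in G4. For other genes the pair of values stood apart. Dpcd had 2.09 (1.83 to 2.39) in Dup and 0.891 (0.778 to 1.02) in G4, Fos 2.95 and 0.791, Egr1 5.78 and 0.882, Jun 2.11 and 0.506, Dusp6 0.613 (0.550 to 0.683) and 0.998 (0.909 to 1.10), and Spry4 0.648 and 1.39. The source of the values that Dup and G4 have in common was not tested.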

How the data were processed

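Hindlimbs of E11.5 embryos were dissociated with trypsin and sequenced as droplet single-cell libraries, 1 for each group, that count the 3′ ends of transcripts. The authors deposited UMI counts without normalisation. By their methods and processing notes these came from Cell Ranger 3 and a custom mm9 reference, and the notes name mm10 as well. The authors filtered cells on detected genes, mitochondrial UMIs and Scrublet scores, integrated the libraries with Seurat, and named Louvain clusters by markers. Their segment labels, clusters and cell-cycle calls were used as deposited, and 12 columns of cell metadata were not used. Cells with over 2000 detected genes were kept, and the matrix had 0 mitochondrial rows. No further doublet step was run. The wild-type and Dup libraries shared 9 cell barcodes. Of 15668 gene identifiers, 14536 could be given a symbol of their own, 8 a symbol that another identifier also had, and 1124 no symbol.

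UMIs were summed per label and library and scaled to CPM. Ratios of CPM carry exact conditional binomial intervals, levels exact Poisson intervals and shares Clopper-Pearson intervals at 95%, and all cover counting error only. Log2 ratios had 10 CPM added, and genes that averaged at least 20 CPM over the groups compared were measured. No test between groups was run. The members, the 32 gene lists (351 of 363 genes with a row) and the rules were chosen with earlier results of these data known. Named genes were the markers, list members, the duplicated genes, the 15 highest and 10 lowest by segment, the 10 highest and 10 lowest between genotypes without haemoglobin and sex-linked genes, and the 5 in each direction whose genotype difference departed most from the other segments. Cluster 32 and its genes, single-cluster values, leading genes of clusters, genes of shares and pairs, and the genes named to complete a count were chosen after their values were seen. A gene that the rule names is not reported here. Scripts used Python 3.11.15, numpy 2.4.6, scipy 1.17.1, pandas 2.3.3 and matplotlib 3.10.9, and were tested on simulated data.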

Additional observations from a re-analysis of the deposited data

How the results depend on the processing

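Each group was 1 library, so nothing is known of the spread between embryos, and low genes rest on few UMIs. No paired analysis was possible because each group had 1 library and no test was run. The main values are 7 genes higher and 48 lower by segment, 15 higher and 43 lower in Dup, and 6 list members higher and 14 lower in Dup. By segment the counts higher and lower were 13 and 77 with 1 CPM added and 3 and 7 with 50 CPM added. They were 4 and 29 at a minimum mean of 50 CPM and 25 and 136 at 1.5-fold. The count higher was 11 without a minimum level. In marker-gated cells it was 12, but there the only comparator was the mesenchyme outside the gate, not the segments. The gate selects on the 4 markers, so their higher levels in gated cells follow from that choice. In Dup the counts higher and lower were 24 and 97 with 1 CPM added and 6 and 11 with 50 CPM added. They were 24 and 65 without a minimum level, 3 and 23 at 50 CPM and 6 and 3 at 2-fold. In cluster 1 they were 40 and 97, and in cluster 14, whose wild-type part had 35 cells, 293 and 565. The count lower in Dup was 82 for the mean over cells, 24 with median-of-ratios scaling and 66 in cluster 0. List members lower in Dup were 6 with 50 CPM added and 2 at 2-fold, and those higher and lower were 3 and 7 at 50 CPM. The flanking ratio was 1.04 with median-of-ratios scaling.

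The label's share was 16.1% and 39.8% (ratio 2.47) over 3000 detected genes, 20.4% and 33.2% (ratio 1.63) for marker-gated cells, 18.5% and 37.4% with autopod chondrocyte progenitors and 19.7% and 40.9% of the 3 segment labels. Without thinning, Hoxd13 was found in 74.2% and 77.2% of cells and Hoxa13 in 71.2% and 70.1%. The log2 ratio of Dup to wild type changed sign for Sema3a in marker-gated cells (-0.20), cluster 0 (-0.027) and cluster 14 (-0.018), and in cluster 14 for 9430024E24Rik (-0.51) and Hoxa11 (0.20). Of the other values for named genes between genotypes, 122 lay outside the counting interval of the plain ratio and 133 did not. The values had 10 CPM added and that ratio had none, so the main value of a low gene could already lie outside. Egr1 was thus counted without a minimum level, where its log2 ratio stayed at 1.84. Hoxa11 was not counted over 3000 detected genes, where it went from -0.96 to -1.29. These counts therefore do not show how many values moved by more than counting error. By segment a different rule was used, the size of the change, by which 32 moved and 218 did not, with no change of sign. These include values of marker-gated cells, which were set against the mesenchyme outside the gate. The cause of the changes was not tested.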
